A study of Homo sapiens with 4 samples.

Results

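The cells described here were the replication-high cells of 4 single-cell RNA libraries, that is, the cells of each library with the largest share of their RNA in genes that copy DNA. In each library, cells with under 20% of their unique molecular identifiers (UMIs, 1 per captured RNA molecule) on mitochondrial genes were ranked by the summed UMIs of MCM2, MCM3, MCM4, MCM5, MCM6, MCM7, PCNA, GINS2, CDC6, TYMS, RRM2 and CLSPN over the cell's total, and the top 10% were taken, ties going by barcode order. The members were thus chosen by measured UMIs. This gave 1639 replication-high cells of 16400 cells in all, and each was compared with the other 90% of its own library. Because these 12 genes chose the cells, they are left out of the description, and nothing below is tested: every group had 1 library, cells of a library are not replicates, and the choice used measured counts.

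The cells were MSTO-211H, an established human pleural mesothelioma line labelled wild type, grown without serum as suspended cells on ultra-low adhesion plastic with SM1 supplement, EGF, bFGF and heparin. The group Control received neither agent, Radiation received 4 Gy, Drug received QTP at 10 µM, and Drug_Radiation received QTP at 10 µM the day before 4 Gy. The series names dopamine receptor inhibition as the purpose of the treatment combined with radiotherapy. All 4 groups were collected 48 h after the irradiation, as pooled cells passed through a 40-µm strainer.

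Of 3183 Control cells 318 were replication-high, as were 242 of 2425 Radiation cells, 380 of 3802 Drug cells and 699 of 6990 Drug_Radiation cells. Where 4 values follow each other below, they stand in that order of libraries. The libraries shared 0 barcodes. Depth differed several-fold: the median replication-high cell held 2977.5, 6411, 26688 and 21322 UMIs, against 2268, 5213, 19800 and 17484 UMIs in the median other cell. The replication-high cells were thus deeper at the median in every library, although the deepest cell of each library was among the other cells. The 2 libraries with QTP were the deeper libraries, so that depth and QTP cannot be told apart between libraries. The median mitochondrial share hardly separated the parts, at 3.12% against 3.19% in Control and 4.94% against 5.20% in Drug_Radiation.

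A cell copies its DNA from origins that are loaded with the MCM helicase in G1 and fired at the start of S phase by CDC45, the GINS complex and cyclin-dependent kinases. Polymerases, the PCNA clamp and its RFC loaders then extend the new strands, while nucleotide enzymes supply the building blocks and chromatin assembly factors package the product. E2F transcription factors switch on most of these genes at the G1 to S boundary, whereas many genes of G2 and mitosis are switched on later through a promoter element called CHR, the cell cycle homology region.

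That division was visible in promoter letters of the gene lists used below. The promoters of 5 genes that describe these cells are shown because they carry either kind of letters. A promoter here was the 300-base RefSeq window from 250 bases before to 50 bases after a start site (GRCh38.p14). The E2F letters searched were TTTCCCGC, TTTGGCGC, TTTGCCGC and TTTCGCGC, the CHR letters were TTTGAA, and both strands were read. The 250 bases before the start are printed 5′ to 3′ on the gene's own strand, with matches on either strand in capitals; no match of one kind overlaps a match of the other in these promoters. RFC3, which loads the PCNA clamp, has its E2F letters 55 bases before the start (chr13:33817899-33818148, plus strand). E2F1, an activating E2F factor, has matches 33 and 20 bases before the start (chr20:33686386-33686635, minus strand). PCLAF, a partner of PCNA, has its match 45 bases before the start shown here (chr15:64381442-64381691, minus strand). The 250 bases before its other start (chr15:64387688-64387937) hold no letters of either kind. CDC20, which activates the anaphase-promoting complex, has CHR letters 178 and 65 bases before the start (chr1:43358731-43358980, plus strand), and TOP2A, the topoisomerase that untangles sister DNA, has them at 194 and 151 (chr17:40417897-40418146, minus strand).
RFC3: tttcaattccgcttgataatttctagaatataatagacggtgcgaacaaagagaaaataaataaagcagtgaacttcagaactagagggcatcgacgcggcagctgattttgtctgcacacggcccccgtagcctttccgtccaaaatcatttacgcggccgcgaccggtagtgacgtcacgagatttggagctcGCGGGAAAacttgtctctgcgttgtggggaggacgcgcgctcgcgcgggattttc
E2F1: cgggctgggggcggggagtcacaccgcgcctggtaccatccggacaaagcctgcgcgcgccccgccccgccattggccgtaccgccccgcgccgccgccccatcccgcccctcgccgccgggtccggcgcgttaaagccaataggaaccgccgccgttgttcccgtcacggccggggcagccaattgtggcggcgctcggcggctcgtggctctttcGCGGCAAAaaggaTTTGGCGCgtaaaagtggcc
PCLAF: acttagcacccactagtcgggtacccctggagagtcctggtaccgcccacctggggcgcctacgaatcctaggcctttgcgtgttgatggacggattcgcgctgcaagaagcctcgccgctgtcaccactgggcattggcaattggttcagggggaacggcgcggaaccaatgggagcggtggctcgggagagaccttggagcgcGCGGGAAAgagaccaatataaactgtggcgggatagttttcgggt
CDC20: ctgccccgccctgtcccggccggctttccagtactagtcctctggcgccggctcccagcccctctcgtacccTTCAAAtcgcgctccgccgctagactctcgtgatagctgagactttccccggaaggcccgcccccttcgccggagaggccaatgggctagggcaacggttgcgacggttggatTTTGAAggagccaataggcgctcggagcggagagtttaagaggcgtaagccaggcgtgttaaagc
TOP2A: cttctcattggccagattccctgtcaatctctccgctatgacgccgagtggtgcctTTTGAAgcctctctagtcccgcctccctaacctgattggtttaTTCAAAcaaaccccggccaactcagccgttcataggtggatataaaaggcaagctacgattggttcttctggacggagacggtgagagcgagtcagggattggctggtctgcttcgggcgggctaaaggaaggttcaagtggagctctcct

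E2F letters were present in 23 of the 60 promoters (38.3%) found for the 70 listed genes of origins, forks and chromatin assembly, and in 3 of the 60 promoters (5%) found for the 68 listed genes of G2 and mitosis. CHR letters were present in 41 of those 60 G2 and mitosis promoters (68.3%) and in 3 of the 60 replication promoters (5%). Over all 27305 genes with a window, 3.99% held E2F letters and 18.2% held CHR letters. These shares belong to the lists and would be the same for any cells. Of the 20 highest genes named further on, 15 had a promoter window. Of these, 4 held E2F letters (26.7%) and 7 held CHR letters (46.7%). CDK1 held both kinds, while ORC6, TK1, CCNA2, AURKB and RFC4 held neither. In the 250 bases before the start, MCM10 and CCNB1 held no letters of either kind. A match describes these letters only and does not show that a factor binds there.

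Genes were measured in CPM, the summed UMIs of a gene in the replication-high or the other cells of a library, scaled to 1000000 nuclear-encoded UMIs without the 12 choosing genes, and compared as log2 ratios of CPM plus 1. Such sums do not tell more cells with a transcript from more transcript per cell. At 1.5-fold or more, among genes with 50 CPM or more in either part, 254 of 2316 genes (11%) were higher and 39 (1.68%) lower in the replication-high cells of Control. The counts were 300 higher (11.7%) and 69 lower (2.68%) of 2572 genes in Radiation, 291 (9.70%) and 60 (2%) of 3001 in Drug, and 178 (6.69%) and 24 (0.902%) of 2660 in Drug_Radiation. In all 4 libraries together, 126 of 2105 genes (5.99%) were higher and 6 (0.285%) lower. Scaling by TMM factors gave 199 higher and 100 lower in Control and 229 and 133 in Radiation, and median-of-ratios scaling gave 204 and 110 in Control. Both scalings shifted every log2 ratio of Control down by 0.12, and other libraries by no more than that.

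The label of DNA-replicating cells was met in part. In each library, cells chosen with MCM2 to MCM7 alone carried more of the 6 choosing genes not used, by 2.59-, 3.88-, 4.44- and 3.43-fold. Cells chosen with those other 6 carried more of MCM2 to MCM7, by 3.23-, 4.70-, 4.15- and 3.60-fold. Both sets are genes that chose the cells, so these values describe the score and do not support the label. The choice by those 6 MCM genes and the choice by the other 6 shared 29.9% of their cells in Control and 54.5%, 64.2% and 59.7% in the other 3 libraries. The median replication-high cell of Control held 6 UMIs of the 12 genes, against 55 in Drug, and 1377 of the 2865 other cells of Control (48.1%) held none. The lowest replication-high cells held 0.147%, 0.131%, 0.144% and 0.102% of their UMIs in the 12 genes, and the nearest cells below held 0.146%, 0.131%, 0.144% and 0.102%. The boundary was not a gap, since 54, 30, 69 and 113 of the replication-high cells lay within 10% of it, with 59, 34, 71 and 122 other cells as close below. The cells were also rich in mitotic transcripts, as described further on, so they are called replication-high and not S-phase cells.

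Genes of origin licensing and firing were among those that differed most. Of 15 such genes with 5 CPM or more over every whole library, 13 were higher in the replication-high cells of all 4 libraries and 8 by at least 1.5-fold. Over all 8824 genes at that level, 28.8% were higher in all 4 libraries at any size and 3.86% at 1.5-fold. The summed list stood at 596, 704, 946 and 656 CPM, against 233, 200, 290 and 224 CPM in the other cells. Its log2 ratios were 1.36 (95% counting interval 1.22 to 1.49), 1.81 (1.71 to 1.91), 1.71 (1.67 to 1.74) and 1.55 (1.52 to 1.58), where the intervals cover the counting error of 1 library only. CDC45, the helicase subunit that joins when an origin fires, had 40.3, 65.5, 68.3 and 45.4 CPM in the replication-high cells against 4.79, 3.55, 4.63 and 3.88 CPM in the other cells. Its log2 ratio, 2.83 to 3.87, was among the largest of the listed genes, and the levels of the parts did not overlap across libraries. ORC6, a subunit of the origin recognition complex, had 89.5, 118, 174 and 126 CPM against 19.1, 10.4, 18.1 and 12.8. GMNN encodes geminin, which prevents origins from being loaded again within a cycle, and had 74.7, 62.5, 101 and 67.4 CPM against 18.2, 11.1, 22.1 and 15.2. MCM10, a helicase cofactor, had 9.83, 24.0, 25.4 and 16.6 CPM against 2.40, 1.34, 1.96 and 1.65. ORC2 and ORC4, other subunits of the recognition complex, did not share the pattern: their log2 ratios were 0.52, -0.11, 0.32 and 0.14, and -0.21, -0.16, 0.05 and 0.03. ORC6 was higher in every library, while ORC2 and ORC4 were on either side of 0.

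Polymerases and fork factors were likewise higher. In 23 of 24 measured members the replication-high cells had more CPM in all 4 libraries, 17 of them by 1.5-fold. These are 95.8% and 70.8% of the list, against 28.8% and 3.86% of all 8824 genes. The summed list stood at 1804, 1971, 2448 and 1692 CPM against 870, 802, 1020 and 773. RFC3 had 84.6, 60.7, 101 and 60.9 CPM against 13.2, 8.45, 13.3 and 8.42, and its log2 ratio was nearly constant, from 2.59 to 2.83. RFC4, another clamp loader subunit, had 84.6, 75.7, 90.5 and 57.5 CPM against 15.3, 10.3, 16.7 and 12.5, although its gene overlaps EIF4A2 and the counting by strand is not known. The loaders were thus several-fold higher in each library. PCLAF reached 333, 294, 357 and 223 CPM against 129, 63.4, 112 and 47.1. It was highest in Drug and lowest in Drug_Radiation, and was higher than in the other cells of every library. RNASEH2A, which removes RNA from DNA, had log2 ratios of 1.54, 1.99, 2.01 and 1.96, and POLA2, a subunit of the priming polymerase, 2.04, 2.31, 2.32 and 1.93. POLD4, a small subunit of polymerase delta, was the exception, with 69.8, 66.7, 75.4 and 78.6 CPM against 92.7, 90.4, 112 and 102. It was lower in the replication-high cells of all 4 libraries, and POLE4, a small subunit of polymerase epsilon, had log2 ratios of only 0.12 to 0.33.

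**Figure D1:**
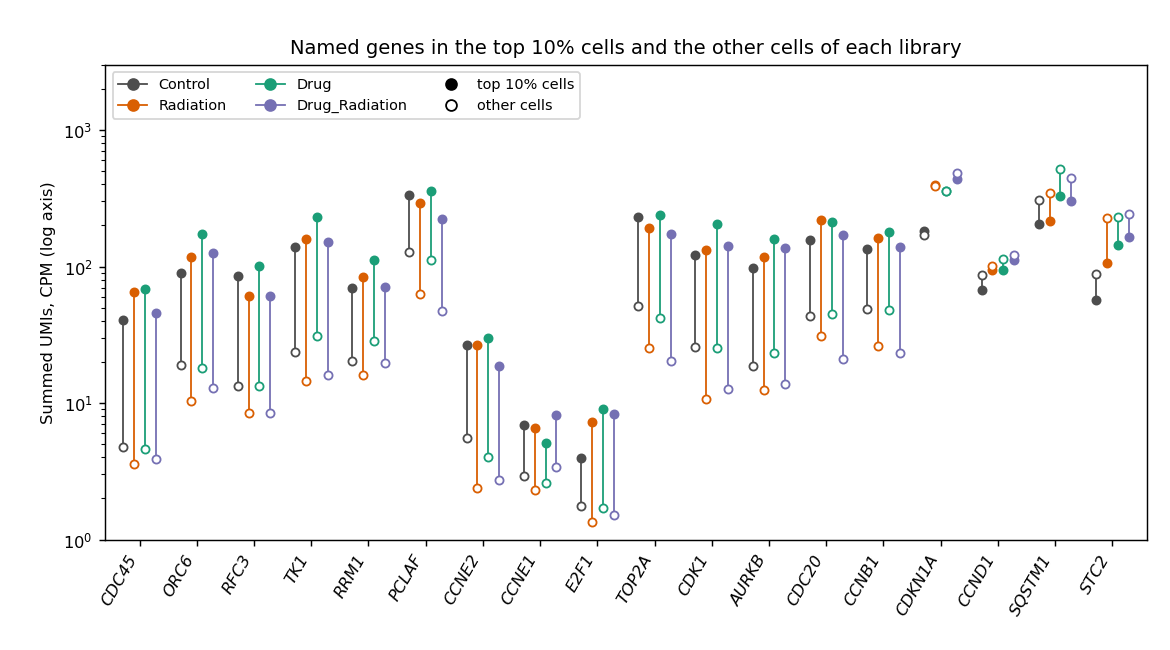
CPM on a log axis for 18 named genes in the replication-high cells (filled points) and the other cells (open points) of each library, joined by a line, with 1 library per group and no error bar. CDC45 stands between 40.3 and 68.3 CPM in the replication-high cells and between 3.55 and 4.79 CPM in the others, whereas the CDKN1A points nearly coincide and SQSTM1 is lower in the replication-high cells.

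Nucleotide enzymes followed, with 17 of 19 measured genes higher in all 4 libraries and 11 by 1.5-fold. These are 89.5% and 57.9% of the list, against 28.8% and 3.86% of all 8824 genes. TK1, the thymidine kinase of dividing cells, had 139, 160, 232 and 152 CPM against 23.7, 14.5, 31.2 and 16. RRM1, the large subunit of ribonucleotide reductase, had 69.8, 84.1, 112 and 70.6 CPM against 20.4, 16, 28.4 and 19.5. DUT, which keeps uracil out of DNA, had 315, 215, 282 and 164 CPM against 100, 62.2, 86.3 and 53.9. All 3 enzymes were several-fold higher in the replication-high cells of each library. SLC29A1, a nucleoside transporter, had steady log2 ratios of 1.60, 1.60, 1.82 and 1.69. The summed list had log2 ratios of 0.41, 0.35, 0.56 and 0.36. IMPDH2, an enzyme of guanine nucleotide synthesis, was lower in all 4 libraries, with log2 ratios of -0.06, -0.28, -0.20 and -0.20.

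Chromatin assembly and the upkeep of DNA methylation were higher in 11 of 12 measured genes in all 4 libraries, 10 of them by 1.5-fold. These are 91.7% and 83.3% of the list, against 28.8% and 3.86% of all 8824 genes. ASF1B, a histone chaperone, had 45.2, 80.5, 110 and 82.1 CPM against 10.3, 4.82, 9.20 and 5.88. Its paralog ASF1A, which also carries histones outside S phase, had log2 ratios of only -0.07, 0.13, 0.19 and 0.17. The paralogs therefore separated in each library. UHRF1, which recognises hemimethylated DNA, had log2 ratios of 1.81, 1.98, 2.44 and 1.93, and DNMT1, the maintenance methyltransferase, 1.27, 1.78, 1.51 and 1.28. Histone genes of the replication type are mostly made without a poly(A) tail, and 3 of 62 listed genes reached 5 CPM in every library. H4C3 had 76.7, 46.9, 77.4 and 48.1 CPM against 14.4, 7.19, 18.4 and 13.4. H2AC6 and H2BC5 were lower in all 4 libraries, with log2 ratios of -1.86, -0.37, -1.94 and -1.53, and -0.78, -1.40, -1.43 and -0.84. The 3 detected histone genes thus ran in opposite directions within the same cells.

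Recombination and crosslink repair genes were higher in 16 of 16 measured genes, 14 of them by 1.5-fold. These are 100% and 87.5% of the list, against 28.8% and 3.86% of all 8824 genes. BRCA1, which acts in recombination repair, had 18.7, 19.8, 30.0 and 21.5 CPM against 4.42, 3.40, 5.84 and 4.07. UBE2T, the conjugating enzyme of the Fanconi pathway, had 159, 152, 220 and 156 CPM against 45.9, 22.0, 39.0 and 25.3. Differences were smaller for PARP1, a sensor of strand breaks, with log2 ratios of 0.69, 0.80, 0.88 and 0.78, and for UNG, the uracil glycosylase, with 0.74, 0.81, 0.62 and 0.57. Checkpoint genes were less uniform: 5 of 9 measured genes were higher in all 4 libraries and 2 were lower. These are 55.6% and 22.2% of the list, against 28.8% and 24.8% of all 8824 genes. CHEK1, the replication checkpoint kinase, had log2 ratios of 1.20, 1.57, 1.20 and 1.09, although its gene overlaps STT3A. ATR, the kinase that activates it, had 0.31, -0.18, 0.01 and -0.08, and ATM, the kinase of double-strand breaks, 0.32, -0.14, -0.21 and -0.21. The 2 upstream kinases were thus on either side of 0, and CHEK1 was higher in every library.

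Among regulators of the G1 to S step, 6 of 14 measured genes were higher in all 4 libraries and 2 were lower. These are 42.9% and 14.3% of the list, against 28.8% and 24.8% of all 8824 genes. CCNE2, cyclin E2, had 26.6, 26.4, 30.0 and 18.7 CPM against 5.55, 2.37, 4.05 and 2.71, while its relative CCNE1 had 6.88, 6.61, 5.07 and 8.14 CPM against 2.90, 2.29, 2.61 and 3.39. Both cyclins were higher in every library, although CCNE2 overlaps neighbouring genes and the CCNE1 level in Control rested on 7 UMIs. CDK2, their kinase partner, had log2 ratios of 1.93, 2.27, 2.22 and 1.95. E2F1 had 3.93, 7.21, 9.06 and 8.33 CPM against 1.77, 1.34, 1.69 and 1.52. In Control that E2F1 level rested on 4 UMIs. CCND1, the cyclin of early G1, had 67.9, 93.8, 94.8 and 111 CPM against 86.6, 100, 114 and 122. It was lower in the replication-high cells of each library, by less than the 1.5-fold that was used for a call. CDKN1B, an inhibitor of cyclin-dependent kinases, had log2 ratios of 0.15, -0.47, -0.25 and -0.22.

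**Figure D2:**
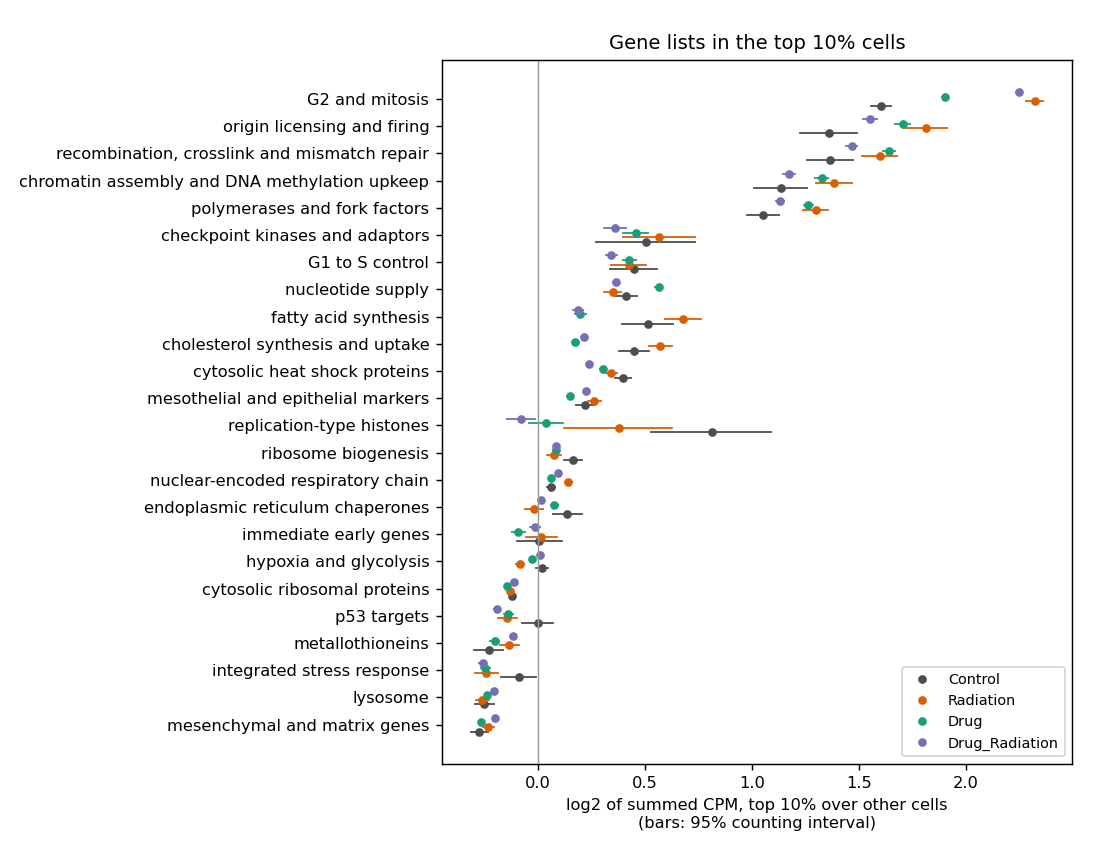
The log2 ratio of summed CPM, replication-high cells over other cells, for 24 gene lists in each library, with bars giving the 95% counting interval of 1 library. G2 and mitosis genes lie furthest to the right, at 1.60 to 2.32, with origins at 1.36 to 1.81, and the lysosome and matrix lists lie to the left of 0 in all 4 libraries.

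Genes of G2 and mitosis were also higher in these cells. In 50 of 51 measured genes the replication-high cells had more CPM in all 4 libraries, 47 of them by 1.5-fold. The summed list stood at 4990, 5103, 6375 and 4572 CPM against 1642, 1020, 1706 and 962, log2 ratios of 1.60 (1.56 to 1.65), 2.32 (2.28 to 2.36), 1.90 (1.89 to 1.92) and 2.25 (2.24 to 2.26). CDK1, the kinase that drives mitosis, had 122, 132, 204 and 142 CPM against 25.6, 10.7, 25.4 and 12.8. AURKB, the kinase of the chromosomal passenger complex, had 98.3, 117, 159 and 138 CPM against 18.8, 12.6, 23.3 and 13.9. CCNB1, cyclin B1, had 135, 162, 179 and 139 CPM against 49.1, 26.1, 47.8 and 23.3. These 3 genes were higher in the replication-high cells of every library, and their levels did not overlap between the parts. Among genes with 50 CPM or more in either part of every library, which leaves out CDC45 and ASF1B, the 20 with the largest log2 ratio in their weakest library were, in no order, ZWINT, ORC6, CDK1, TK1, CCNA2, CENPU, AURKB, PBK, RFC3, TOP2A, BIRC5, UBE2T, CDC20, AURKA, RFC4, MAD2L1, HMGB2, UBE2C, GMNN and RRM1. They hold both replication and mitotic genes.

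The 2 kinds of transcripts also met in single cells. When cells were also ranked by their share of UMIs in the 68 G2 and mitosis genes, 108 of 318 replication-high cells of Control (34.0%, exact 95% interval 28.8 to 39.5) were in the top 10% of that ranking. The other libraries had shares of 57.9% (51.4 to 64.1), 42.6% (37.6 to 47.8) and 58.7% (54.9 to 62.3), where unrelated rankings would share 10%. A share above 10% was not particular to mitotic genes. Origin genes gave 30.8%, 49.6%, 69.5% and 61.2%, and cytosolic heat shock proteins 28.9%, 33.1%, 33.4% and 31.3%. Lysosome genes gave 3.46%, 1.65%, 3.42% and 3.58%. For G2 and mitosis genes the irradiated library had the higher share in both pairs, but the shares moved with the cut. With both rankings cut at their top 5%, where unrelated rankings would share 5%, they were 10.1%, 28.9%, 7.89% and 37.7%. With both cut at the top 20%, where that share is 20%, they were 55.7%, 60.6%, 68.3% and 65.2%, and the order turned in the pair with QTP. UMIs per cell differed between libraries, so the ranking was repeated with each cell thinned to 2000 UMIs, leaving out 1249 cells of Control and 80 of Radiation. The shares were then 26.9% (20.8 to 33.8), 49.1% (42.6 to 55.7), 36.3% (31.5 to 41.4) and 42.3% (38.7 to 46.1). At 1000 UMIs they were 30.2%, 40.5%, 31.3% and 31.2% in one random draw and 28.6%, 35.5%, 33.7% and 31.8% in another, where the median replication-high cell held 2 or 3 UMIs of the 12 genes. In the pair with QTP the irradiated library was thus not the higher one at 1000 UMIs, while at 10000 UMIs the shares were 42.9% (37.5 to 48.3) in Drug and 56.0% (51.9 to 59.9) in Drug_Radiation. These intervals cover counting error over the cells of 1 library, and a difference between libraries was not tested. No doublets were called here, so their part in these shares was not tested. Without the 2% of cells with the most UMIs, 129 genes were higher in all 4 libraries, with all of the 126 among them. That count does not bear on whether the 2 kinds of transcripts met in single cells.

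**Figure D3:**
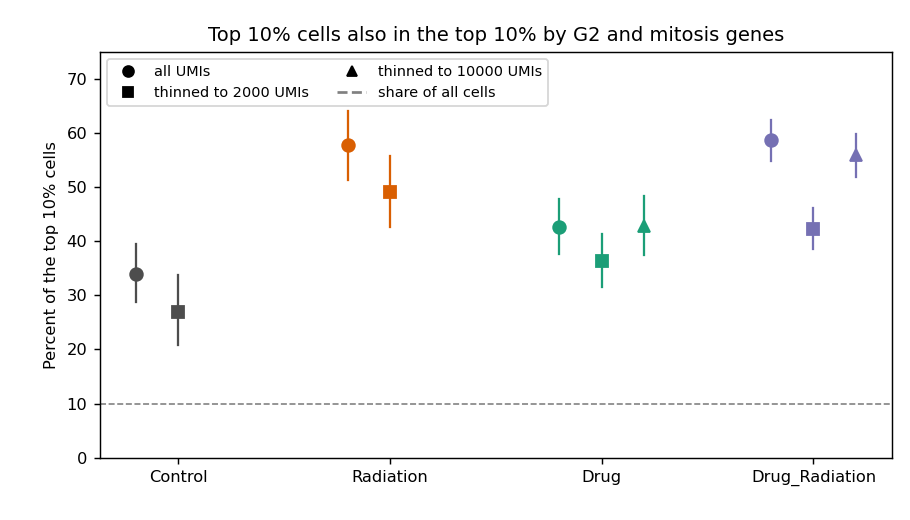
Percent of the replication-high cells of each library that are also in the top 10% by G2 and mitosis genes, from all UMIs and after thinning each cell to 2000 or 10000 UMIs, with bars giving the exact 95% binomial interval (counting error only) and a dashed line at 10%. With all UMIs the points lie at 34.0%, 57.9%, 42.6% and 58.7%, all above the line.

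Replication genes differed among themselves when the replication-high cells were split by that second ranking. Outside the mitotic top 10% there were 210, 102, 218 and 289 replication-high cells, called replication only, and inside it 108, 140, 162 and 410, called both. CCNE2 had 37.8, 35.8, 46.8 and 27.5 CPM in the replication-only cells, against 7.85, 20.6, 11.5 and 12.9 CPM in the cells of both kinds. UHRF1 had 34.7, 34.3, 48.2 and 24.7 CPM against 10.5, 12.7, 36.1 and 22.5. Cyclin E2 and UHRF1 were thus higher where mitotic transcripts were fewer, in each library, though UHRF1 barely so in Drug_Radiation. The level of CCNE2 in the Control cells of both kinds rested on 3 UMIs. UHRF1 in the cells of both kinds rested on 4 UMIs in Control and 13 in Radiation. Other replication genes ran the opposite way: CDC45 had 37.8, 46.7, 60.9 and 37.9 CPM in the replication-only cells against 44.5, 77.3, 76.6 and 50.4, and TK1 had 104, 101, 186 and 94.2 against 196, 198, 283 and 190. In Control the CDC45 levels rested on 24 and 17 UMIs, so the direction there is uncertain. The summed origin list was likewise lower in the replication-only cells, at 555, 540, 888 and 551 CPM against 665, 807, 1009 and 724. CCNB1 had 34.7, 34.3, 37.8 and 25.2 CPM in the replication-only cells against 301, 242, 336 and 215 in cells of both kinds. TOP2A had 107, 32.7, 76.1 and 35.2 CPM against 437, 290, 418 and 262. The second split used genes of the G2 and mitosis list, so the levels of CCNB1 and TOP2A describe that choice and support nothing. The replication-only cells still held mitotic RNA: their median share of UMIs in the list was 0.216%, 0.148%, 0.252% and 0.134%, against 0.054%, 0.051%, 0.078% and 0.060% in cells outside both top groups. Without the mitotic top 10% in either part, 50 genes were higher in all 4 libraries, 49 of them among the 126.

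**Figure D4:**
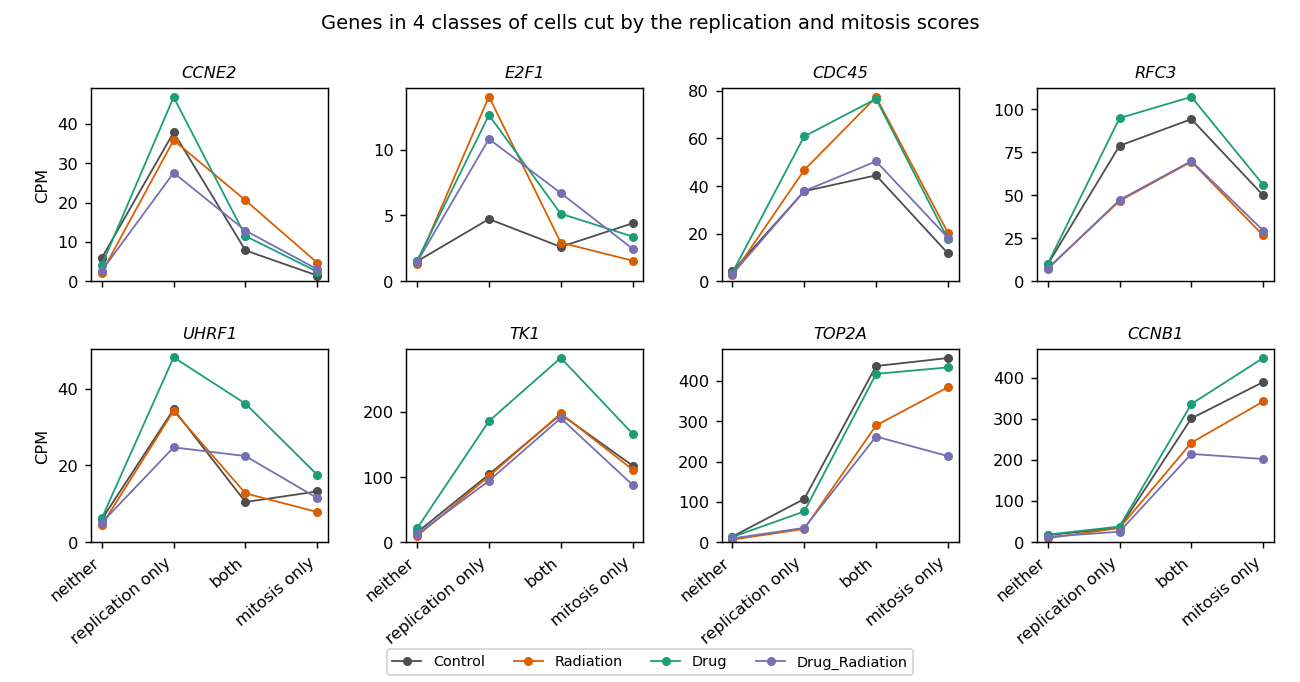
CPM of 8 genes in cells of neither top group, of the replication ranking only, of both and of the mitosis ranking only, by library, with points joined for reading and 1 library per group. CCNE2 peaks in the replication-only cells of all 4 libraries, at 27.5 to 46.8 CPM, and CCNB1 stays at or below 37.8 CPM there.

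Outside the cell cycle, most lists differed little. CDKN1A, the p53 target that inhibits cyclin-dependent kinases, had 181, 399, 357 and 435 CPM in the replication-high cells and 171, 392, 360 and 483 CPM in the other cells. Its level in the replication-high cells of Radiation was therefore as far above Control as in the other cells, at a log2 difference of 1.14 against 1.19. Of 28 measured p53 targets, 4 were higher and 9 lower in all 4 libraries, and 0 differed by 1.5-fold in all 4. These are 14.3% and 32.1% of the list, against 28.8% and 24.8% of all 8824 genes. MDM2, the ligase that degrades p53, had log2 ratios of 0.05, -0.31, -0.31 and -0.40, and GDF15, a secreted stress factor, -0.13, -0.12, -0.40 and -0.33. Cytosolic heat shock proteins were higher in 10 of 12 measured genes but by under 1.5-fold in at least 1 library each. HSPD1, a chaperonin of mitochondria that the list also holds, had 624, 849, 779 and 598 CPM against 424, 543, 524 and 420, although it shares a bidirectional start region with HSPE1.

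Genes lower in the replication-high cells were fewer and included secreted, lysosomal and matrix genes. Of 30 measured lysosome genes 24 were lower in all 4 libraries, against 24.8% of all 8824 genes, and 1 was higher. The summed log2 ratio of that list was -0.25, -0.26, -0.24 and -0.21. PSAP, the precursor of the saposins that help to degrade sphingolipids, had 371, 704, 580 and 680 CPM against 523, 1019, 834 and 953. Of 26 mesenchymal and matrix genes 20 were lower and 0 higher, and of 79 cytosolic ribosomal protein genes 75 were lower, by little: their summed log2 ratios were -0.12, -0.13, -0.14 and -0.11. Those 3 lists stayed below 0 under the TMM and median-of-ratios scalings, which could hardly have turned them. TMM lowered the ratios of every library, and median of ratios raised only those of Drug, slightly. Under the same limit of 50 CPM in every library, which leaves out CEBPB, the 12 lowest genes by their weakest library were EVI2A, H2AW, CITED2, SLPI, DAAM1, CCDC80, STC2, CYHR1, SCG2, SQSTM1, EPB41L4A-AS1 and GATA3. SQSTM1, the autophagy receptor p62, had 206, 215, 327 and 304 CPM against 309, 344, 523 and 446. STC2, a secreted glycoprotein of stressed cells, had 57.0, 106, 144 and 164 CPM against 88.8, 227, 230 and 243. EVI2A had the largest difference of the 12, with 63.9, 59.5, 66.1 and 65.2 CPM against 118, 173, 169 and 136. CEBPB, a stress-response transcription factor, was lower by log2 ratios of -1.70, -1.21, -1.21 and -0.80 at a low level. All of these genes were lower in every library.

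Lipid genes divided by library. FADS2, a fatty acid desaturase, had 158, 287, 227 and 206 CPM against 50.3, 43.4, 58.1 and 75.5, the largest difference among the fatty acid genes. FEN1, the flap endonuclease of DNA replication, lies within FADS2 on the same strand and was at 0, 0, 5 and 5 UMIs in the replication-high cells, so that reads of the 2 genes cannot be told apart. Without FADS2 the fatty acid list had summed log2 ratios of 0.29, 0.19, -0.02 and 0.00. The cholesterol list had 0.45 in Control and 0.57 in Radiation, against 0.17 in Drug and 0.21 in Drug_Radiation. IDI1, an enzyme of isoprenoid synthesis, had 259, 292, 390 and 274 CPM against 168, 149, 296 and 209. The excess of cholesterol genes in the replication-high cells was thus smaller in both libraries with QTP.

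Between libraries, the replication-high cells were compared for radiation (Radiation over Control, and Drug_Radiation over Drug) and for QTP (Drug over Control, and Drug_Radiation over Radiation). These comparisons share libraries. The median log2 difference of all measured genes in the replication-high cells was 0.17 and -0.21 for radiation and 0.45 and 0.03 for QTP, and values are to be read against it. TMM and median-of-ratios scaling would lower the QTP differences without radiation by 0.33 and 0.34, and move the other differences in these cells by less. At 2-fold in both pairs, radiation left 0 of 2495 genes higher and 0 lower in the replication-high cells (0% each), and in the other cells 0 of 2271 higher (0%) and 1 lower (0.0440%). GDF15 was among the genes with the largest differences in the same direction, at 1.06 and 0.59 in the replication-high cells and 1.05 and 0.53 in the others. COL6A1, a collagen VI chain, was at 1.12 and 0.50. The lowest included DUT at -0.55 and -0.78, the nucleolar methyltransferase FBL at -1.38 and -0.56, and H4C3 at -0.70 and -0.67. DUT and H4C3 are replication genes that were lower in the irradiated library of both pairs, within cells chosen for other replication genes. By the CPM given above, both were also lower there in the other cells, so this was not particular to the replication-high cells.

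The same size with QTP was reached upward by 8 of 2660 genes (0.301%) and downward by 52 (1.95%) in the replication-high cells, against 12 (0.486%) and 51 (2.07%) of 2467 in the other cells. All 8 of the higher genes and 49 of the 52 lower genes were also called in the other cells. SCD, a desaturase, was at 1.05 and 1.34, and LPIN1, a phosphatidate phosphatase, at 1.38 and 1.14. NGB, neuroglobin, was among the lowest, with 2853 and 1369 CPM in the replication-high cells without QTP (Control and Radiation) and 158 and 126 CPM in those with QTP. ARF5 and RPSA were also among the highest, but ARF5 overlaps FSCN3 and RPSA has near-identical copies, so both are uncertain. With TMM scaling 4 genes were higher and 54 lower, and with median-of-ratios scaling 3 and 61.

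**Figure D5:**
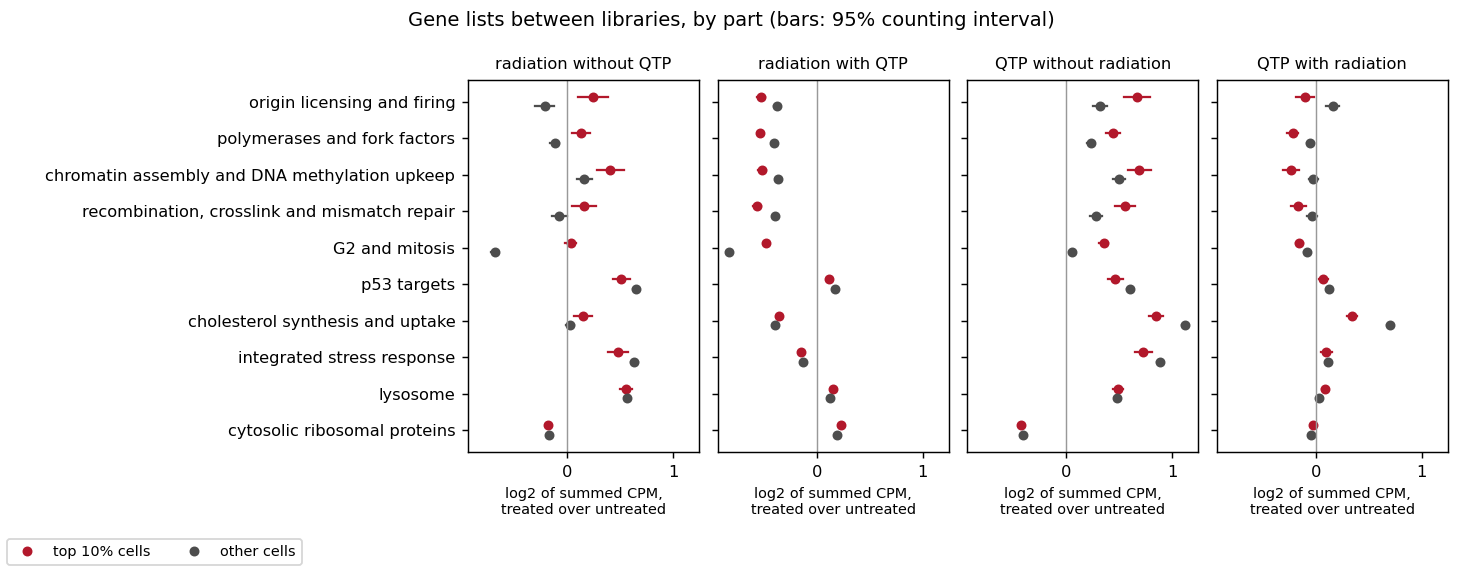
The log2 ratio of summed CPM between libraries for 10 gene lists, in the replication-high cells and in the other cells, with bars giving the 95% counting interval of 1 library per group. For radiation without QTP the G2 and mitosis list stands at 0.03 in the replication-high cells and at -0.69 in the other cells.

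The distance between the replication-high cells and the others also differed between libraries. G2 and mitosis genes differed by 0.03 (radiation without QTP, and -0.05 with TMM scaling) and -0.48 (with QTP) in the replication-high cells, and by -0.69 and -0.83 in the other cells. Their excess in the replication-high cells was thus larger after radiation, by 0.72 and 0.35 on the log2 scale. With the cells chosen after thinning to 1000 UMIs these differences were 0.41 and -0.06, so in the pair with QTP the direction turned. It also turned there for the top 20% of cells, with 0.60 and -0.14, and in both pairs without the mitotic top 10% of cells, with -0.20 and -0.46. CDCA3, a cell division gene, was at 0.39 and -0.23 in the replication-high cells and -1.22 and -1.18 in the others. BIRC5, survivin of the chromosomal passenger complex, was at 0.12 and -0.55 against -0.79 and -1.33, and CDC20 at 0.49 and -0.32 against -0.46 and -1.08. These 3 mitotic genes were lower with radiation in the other cells of both pairs and less so, or not, in the replication-high cells. No gene had a distance that was 2-fold larger or smaller in both pairs (0 of 2105, 0%), for radiation or for QTP.

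Origin genes behaved less evenly. Their summed list differed by 0.24 for radiation without QTP and by -0.53 with QTP in the replication-high cells, and by -0.21 and -0.38 in the other cells. The log2 excess of origin genes over the other cells differed by 0.46 after radiation in the pair without QTP and by -0.15 in the pair with QTP, and this difference of directions was not tested. For cholesterol genes the QTP differences were 0.85 and 0.34 in the replication-high cells and 1.12 and 0.70 in the other cells. That list was higher with QTP in both kinds of cells and less so in the replication-high cells, the difference of the log2 ratios being -0.27 and -0.36, and negative under both other scalings. ACAT2, which makes acetoacetyl-CoA for this pathway, was at 0.84 and 0.57 against 1.32 and 0.96, and FDPS, farnesyl diphosphate synthase, at 0.75 and 0.55 against 1.08 and 0.91. Depth differs with QTP in the same libraries, and its part in these values was not tested beyond the thinned choice, which gave -0.31 and -0.24 for the cholesterol list, and other cells matched by total UMIs, which gave -0.27 and -0.31.

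Markers of other cell types stayed low in the replication-high cells. KRT8 and KRT18, keratins of epithelial and mesothelial cells, stood at 2059 to 3322 CPM and at 3056 to 3244 CPM, and VIM, vimentin, at 2415 to 3962. Mesothelial markers were detected unevenly. CALB2, calretinin, had 42.3, 43.9, 74.9 and 51.3 CPM against 25.7, 29.9, 45.8 and 29.7, and was higher in the replication-high cells of every library. MSLN, mesothelin, had 5.90, 9.02, 10.8 and 10.5 CPM against 8.58, 12.6, 13.6 and 14.5, and was lower in each. WT1 had 1.66 to 2.17 CPM, and ITLN1 was at 0 in the replication-high cells of every library, as UPK3B, KRT5, KRT19 and PDPN were in some. A count of 0 allows up to 3 UMIs, which is 2.95 CPM in the replication-high cells of Control and 0.186 CPM in those of Drug_Radiation. The 15 blood cell markers summed to 22.6, 40.9, 37.3 and 42.8 CPM against 20.6, 45.7, 44.5 and 42.2, with MS4A1 and FCGR3A at 0 in all 4 libraries. The 8 endothelial markers summed to 59.0, 126, 120 and 109 CPM against 63.5, 107, 122 and 108, most of it EGFL7, with CDH5 at 0. The counting intervals of the log2 ratio held 0 for both sums in every library, except for blood markers in Drug (-0.25, -0.41 to -0.10) and endothelial markers in Radiation (0.24, 0.02 to 0.45).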

How the data were processed

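Droplet-type 3′ RNA libraries of 4 groups were analysed, 1 library per group, so no result has a replicate. Per the labels' protocols they were made with the PIPseq V T2 3′ kit, while another label names 10x Genomics, which is not settled. The deposited matrices hold raw UMI counts per gene and cell, as the authors' files give them for 37468 features and 3184, 2428, 3806 and 7006 barcodes. The submitters' processing notes name Seurat 4.3.3 and hg38 with no role, while the aligner, counting tool, strand and annotation were not given in the sources used here. Depth per cell was 1009 to 141848 UMIs.

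Cells of 20% or more mitochondrial UMIs were left out (1, 3, 4 and 16), and no doublets were called. UMIs were summed per library over the replication-high and over the other cells with Python 3.11.15 and numpy 2.4.6. Genes needed 50 CPM in either part for calls of 1.5-fold, and 2-fold in both pairs between libraries. Gene lists were described over genes with 5 CPM or more in every whole library, a limit set after seeing the data. Intervals are exact binomial ones at 95% (scipy 1.17.1), for counting error only. TMM (edgeR 4.0.16) and median-of-ratios (DESeq2 1.42.0) factors were alternatives. Scripts were tested on simulated data.

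Named genes were the 20 highest and 12 lowest by their weakest library, up to 6 highest and 2 lowest of each of 26 lists, 8 per direction between libraries, 6 per direction for the distance between cell kinds, and 24 genes always given; the text describes those that carry a result, and some named genes are not reported here. The members and the lists were chosen with earlier results of these data known. Gene overlaps were read from GENCODE 29, which holds 92.0% of the features, and promoter sequence from RefSeq tables of GRCh38.p14.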

Additional observations from a re-analysis of the deposited data

Results flagged for a closer look

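ADAMTS6, a secreted metalloprotease gene, was on the opposite side of the other cells with and without QTP. Its log2 ratio of replication-high over other cells was 0.50 in Control and 0.30 in Radiation, but -0.16 in Drug and -0.13 in Drug_Radiation. The mean of the libraries with QTP minus the mean of those without was -0.54, and this difference was not tested. In CPM the replication-high cells held 253, 150, 128 and 112, against 179, 122, 144 and 122 in the other cells.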

How the results depend on the processing

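No paired analysis was possible because each group has 1 library. Values under the alternatives were checked for 104 of the named genes. These were the highest, the lowest, those picked between libraries or for the distance, and those always given. Genes named only through a gene list were not checked in this way. Of the values, 1742 stayed close to the reported value and 234 moved by more than the spread over libraries. Among the 104 genes, 0 of those 1.5-fold different in all 4 libraries changed sign, while 47 values of the others did. Of the 126 genes higher in all 4 libraries, counts that moved by over 1.5 times were 61 (choice by MCM2 to MCM7), 50 (choice after thinning to 1000 UMIs), 272 and 55 (20 and 100 CPM), 59 (2-fold), 58 (50 CPM over the whole library) and 50 (without the mitotic top 10%). The 6 lower genes became 15 and 1 (top 5% and 20%), 0 (MCM2 to MCM7), 14 (the other 6 choosing genes), 0 after thinning, 17 (TMM), 11 (median of ratios), 19 and 3 (20 and 100 CPM), 0 at 2-fold and 3 without the mitotic top. Leaving out each library gave 130 to 156 higher and 6 to 15 lower genes, with 15 without Control and 13 without Drug_Radiation. Genes with a larger distance after radiation numbered 3 (top 5%), 1 (matched depth) and 1 (without the deepest 2%), in place of 0. QTP calls in the replication-high cells moved from 8 higher and 52 lower to 13 higher (top 5%), 4 (TMM), 3 (median of ratios), 25 higher and 79 lower (20 CPM), and 3 and 33 (100 CPM). The share also in the mitotic top, in library order, was 10.1%, 28.9%, 7.89% and 37.7% for the top 5%; 15.7%, 44.6%, 33.9% and 43.3% for MCM2 to MCM7; 28.6%, 35.5%, 33.7% and 31.8% at 1000 UMIs, in the second random draw; and 26.9%, 49.1%, 36.3% and 42.3% at 2000 UMIs. For the top 20% it was 55.7%, 60.6%, 68.3% and 65.2%, and the order in the pair with QTP turned. Of 1352 list values 57 changed sign where the counting interval of the reported value held 0, and 14 where it did not: immediate early genes in Drug (top 20%, 0.051); stress response 0.093 and respiratory chain -0.0098 in Control and metallothioneins 0.10 in Radiation (MCM2 to MCM7); histones 0.018, hypoxia -0.00059 and metallothioneins 0.020 in Drug_Radiation (thinned); hypoxia in Drug_Radiation -0.053 and -0.0052 and respiratory chain in Control -0.060 and -0.065 (TMM and median of ratios); ribosome biogenesis in Radiation -0.044 (TMM); and histones -0.14 and metallothioneins 0.14 in Radiation (without the mitotic top). The causes were not tested. The alternatives from 50 CPM over the whole library, without the mitotic top, and at 2000 and 10000 UMIs were chosen after seeing the data. Depth limits Control most.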

Other observations

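Nuclear genes of the respiratory chain were higher in 42 of 62 measured genes in all 4 libraries and lower in 5 (67.7% and 8.06%, against 28.8% and 24.8% of all genes of that level), yet their summed log2 ratio was 0.06, 0.14, 0.06 and 0.09, and in Control it was -0.06 with TMM scaling. CYCS, cytochrome c, stood apart from the list, with 370, 312, 422 and 298 CPM against 192, 180, 252 and 184. Ribosome biogenesis genes were higher in 19 of 33 (57.6%) in all 4 libraries, and TCOF1, a cofactor of ribosomal RNA transcription, had log2 ratios of 0.92, 0.69, 0.72 and 0.70. NOB1, an enzyme of late ribosomal RNA processing, was lower in every library, at -0.65, -0.63, -0.64 and -0.46.

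Of 27 hypoxia and glycolysis genes, 8 were higher (29.6%) and 9 lower (33.3%) in all 4 libraries, near the 28.8% and 24.8% of all 8824 genes. PGAM1, a glycolytic mutase, had 341, 480, 619 and 469 CPM against 236, 336, 477 and 369. NDRG1, a hypoxia-induced gene, had 54.1, 162, 128 and 136 CPM against 106, 333, 201 and 198, and VEGFA, the angiogenic growth factor, had log2 ratios of -0.61, -1.13, -1.02 and -0.72. LDHA, lactate dehydrogenase A, had 0.18, 0.15, 0.08 and 0.15. The stress-response list had 4 of 20 genes higher and 8 lower (20% and 40%) in all 4 libraries. MTHFD2, a mitochondrial folate enzyme, had log2 ratios of 0.41, 0.52, 0.44 and 0.42. DDIT3, a transcription factor of that response, had -1.02, -0.12, -0.77 and -0.70, and in Radiation its counting interval held 0.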
